A study of Rattus norvegicus with 16 samples.

Results

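ACTH and DEX were compared directly in the treated kidney of the rat. The right kidney was treated with ACTH in rats 1 and 5 and with DEX in rats 3 and 7, and the left kidney of the same animal was the control. The comparison therefore used 8 of the 16 arrays of the study, 1 per kidney, and took the right minus left change of the 2 ACTH rats minus that of the 2 DEX rats. The other 8 arrays came from 4 rats whose right kidney was treated with saline. They entered no contrast, but they shared in the estimate of the spread and are given as a background. ACTH is adrenocorticotropic hormone. DEX is an abbreviation that the labels do not expand. For brevity ACTH and DEX are together called the hormones below, which the labels do not say of DEX. Dose, route, duration, sex, strain and age are not in the labels, and whether either agent also reached the left kidneys is not known. The series text speaks of 2 rats per treatment, whereas the array titles name 4 saline rats, and the titles were followed.

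ACTH is the pituitary hormone that drives the adrenal cortex to make corticosteroids. In the kidney, corticosteroids act through the mineralocorticoid receptor in the distal nephron and the glucocorticoid receptor in most cell types. The male-typical transcripts of rodent proximal tubule and liver depend on androgens and on growth hormone, and the prolactin receptor signals through the same kinases and STAT proteins as the growth hormone receptor.

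Values are signal intensities of probe sets, each of them several oligonucleotides against the same transcript or transcripts, as the authors deposited them. Changes are differences of log2(signal + 16), so folds are on the scale of signal + 16 and understate the change of dim genes. After the dimmest 40% were left out, 5244 probe sets were tested with limma, and those with a Benjamini-Hochberg adjusted p under 0.05 are said to be called. A difference with a minus sign was lower after ACTH than after DEX. Of 45 tubule segment markers on the array 42 passed this filter, and Aqp4, Slc9a2 and Pvalb did not. Over the 8 arrays the thick ascending limb protein Umod lay between 1874 and 3117, the proximal tubule phosphate transporter Slc34a1 between 4343 and 5862 and the collecting duct water channel Aqp2 between 869 and 2250. Of 7 adrenal cortex genes on the array 3 were below the filter (Star, at 30.6 to 44.2, Cyp11b2 and Nr0b1). The other 4 passed it, with signals of 101 to 135 for Cyp21a1, 76.9 to 119 for Cyp11a1, 60.7 to 104.5 for Cyp17a1 and 55.4 to 71.1 for Nr5a1. The first principal component, with 45.7% of the variance over the 16 arrays, separated rats 1 to 4 from rats 5 to 8. The labels do not name these sets, and each holds 1 ACTH and 1 DEX rat, so values are given within each set where they differ. In RNA from whole tissue, fewer cells of a type and less RNA per cell cannot be told apart.

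The hormones differed in 30 of the 5244 probe sets, or 0.572%, of which 15 (0.286%) were higher and 15 (0.286%) lower after ACTH. They stood for 23 named genes, 12 higher and 11 lower, and 4 probe sets without a single gene symbol. At an unadjusted p under 0.05 there were 639 probe sets (12.2%), 208 of them higher and 431 lower, and chance alone would give 262. The change of both ACTH rats lay outside that of both DEX rats for all 30, as it did for 38.3% of all probe sets tested (18.5% above, 19.8% below), and the contrast that called them fixes most of this agreement. Against the saline rats, both ACTH rats lay past the whole saline range for 27 of the 30 and 1 of them for 3. Both DEX rats lay past its other end for 16, 1 of them for 8 and neither for 6. These counts were made for the 30 alone, without a share over all probe sets. The calls themselves favour such changes, so the counts are no independent support. The differences came mostly from the ACTH side. The ACTH change was the larger in 24 of the 30 and the DEX change in 6 (both Ucp1 probe sets, Fabp4, Cfd, Ppp1cb and Ppp1cc), and the DEX change was under 0.5 in size for 22. Against their own left kidneys the ACTH rats had 187 called probe sets (3.57%), 106 higher (2.02%) and 81 lower (1.54%), among them 24 of the 30. The DEX rats had 0 called in limma and 310 (5.91%) at an unadjusted p under 0.05. Those within-group tests share arrays with the difference and are given as values beside it.

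Across the 5244 probe sets the ACTH and the DEX change had a Pearson correlation of 0.0172 and a Spearman correlation of 0.0860, as a description over probe sets, which are not independent. The correlation was 0.296 between the changes of the ACTH rats and 0.310 between those of the DEX rats. The changes had an SD of 0.299 over probe sets after ACTH and 0.196 after DEX. A change over 1 in size was found for 65 probe sets after ACTH and for 12 after DEX.

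**Figure D1:**
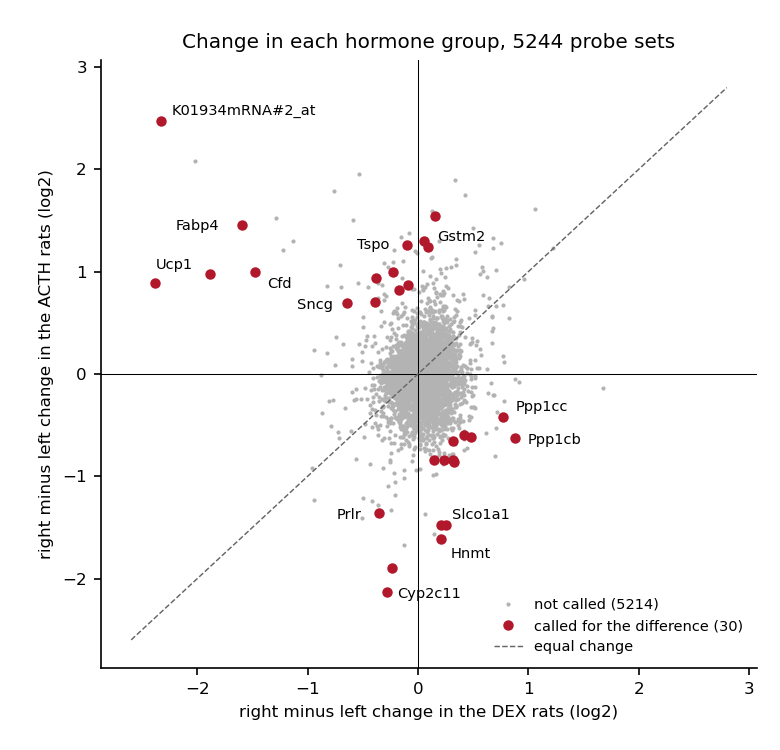
Right minus left change (log2) of each tested probe set in the DEX rats (horizontal axis, mean of 2 rats) and in the ACTH rats (vertical axis, mean of 2 rats); the dashed line marks equal change. The 30 called probe sets (red) lie away from that line and 24 of them have changes of opposite sign, while the others (grey) show no common slope.

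Slco1a1, Kap, Cyp2c11 and Prlr, which are known to depend on male sex hormones or growth hormone signalling or to receive prolactin, were lower after ACTH than after DEX. Of 13 tested genes in a list of androgen, growth hormone and prolactin responsive genes, 4 were called lower and 0 higher. The list was compiled with the calls known, so this count is no independent support. Its median difference was −0.13, against 0.02 over all probe sets, of which 53% were positive and 47% negative, and the 9 other members lay between −0.52 and 0.17.

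Slco1a1, an organic anion transporter of the brush border that depends on androgens in rodent kidney, had left and right signals of 356 and 107 in ACTH rat 1 and of 168 and 55.4 in ACTH rat 5. In the DEX rats they were 302 and 351 in rat 3, and 141 and 166 in rat 7. The right kidney was thus the dimmer one in both ACTH rats and the brighter one in both DEX rats, while the left kidneys differed between the sets of rats. The difference was −1.69 ± 0.18 (SE, 2 against 2 rats, adjusted p = 0.00338), or 3.23-fold. The saline rats changed by −0.38 to −0.02, between the hormone groups.

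Kap, the kidney androgen-regulated protein of the proximal tubule, was the brightest called gene. Its signal went from 4276 in the left to 2605 in the right kidney of ACTH rat 1 and from 3617 to 1842 in ACTH rat 5. It went from 4754 to 5250 in DEX rat 3 and from 3751 to 4168 in DEX rat 7. Both ACTH right kidneys lay below every right kidney of the DEX rats and of the saline rats, which ran from 2890 to 5220. The difference was −0.99 ± 0.14 (adjusted p = 0.0161), made of −0.84 after ACTH and 0.15 after DEX.

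Cyp2c11, the male-specific steroid hydroxylase of rat liver, fell from 438 to 69.1 in ACTH rat 1 and from 297 to 71.6 in ACTH rat 5. It was 152 and 143 in the left and right kidney of DEX rat 3, and 326 and 228 in DEX rat 7. The groups did not overlap in their change, at −2.42 and −1.84 against −0.08 and −0.49, but the saline rats reached −1.40. The difference was −1.84 ± 0.35 (adjusted p = 0.0408). With the mean level of 15 fat cell markers as a covariate it was −0.65 (adjusted p = 0.555). Its other probe sets gave −1.08 and −0.03, neither called, and a probe set can bind transcripts of several near-identical Cyp2c genes.

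Prlr, the prolactin receptor, had changes of −1.33 and −1.39 after ACTH and of −0.35 and −0.36 after DEX, whereas the saline rats ran from −0.14 to 0.11. On this probe set, as for Cyp2c11, the right kidney was lower in all 4 rats, and further so in the ACTH rats. Right kidney signals were 78.7 and 127 after ACTH, and 185 and 240 after DEX. The difference was −1.003 ± 0.17 (adjusted p = 0.0325). Of its 4 other probe sets 3 were tested, with −0.90, −0.76 and −1.44, none of them called, and with mean changes after DEX of −0.51, 0.21 and 0.06.

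Hnmt, which inactivates histamine by methylation, was called in both of its probe sets. The signal of the brighter one went from 523 to 194 in ACTH rat 1 and from 196 to 42.3 in ACTH rat 5, and from 413 to 511 and 186 to 202 in DEX rats 3 and 7. The difference was −1.82 ± 0.27 (adjusted p = 0.0162), and the second probe set gave −1.73 ± 0.24 (adjusted p = 0.0138). The saline rats changed by −0.71 to −0.0012 on the first.

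Among other genes called lower, Gucy1b2, a subunit of guanylate cyclase, had changes of −1.14 and −0.57 in the ACTH rats against 0.37 and 0.27 in the DEX rats (difference −1.18 ± 0.21, adjusted p = 0.0345). With the fat cell marker level as a covariate its difference was −0.43 (adjusted p = 0.502). Afm, a vitamin E binding protein of the albumin family, had −0.65 and −0.54 against 0.32 and 0.52 (difference −1.01 ± 0.19, adjusted p = 0.0411). With the same covariate the difference of Afm was −0.69 (adjusted p = 0.323). In both genes the right kidney was dimmer in each ACTH rat and brighter in each DEX rat. Of the lower probe sets without a gene symbol, D31662exon#4_s_at went from 913 to 215 and from 755 to 207 after ACTH, and from 819 to 754 and 678 to 530 after DEX (difference −1.67 ± 0.23, adjusted p = 0.0138). The others, rc_AA892762_at and Z15123exon#5_s_at, had −1.07 ± 0.19 (adjusted p = 0.0331) and −0.97 ± 0.19 (adjusted p = 0.0476).

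The promoters of the called genes were set beside each other since 15 probe sets were called in each direction. RefSeq windows from 250 bases before to 50 after the gene start (assembly GRCr8) were in the table used for 10 of the 11 lower and 7 of the 12 higher genes. In all, 10 motifs were searched on both strands with the calls known. AGAACA, the half-site bound by glucocorticoid, mineralocorticoid, androgen and progesterone receptors, or its reverse complement TGTTCT, was found in 5 of the 10 lower and 0 of the 7 higher genes. It occurs in 20.7% of all 33469 promoter windows and in the windows of 13.5% of the tested genes that have one. A match is a description of these letters, not a site shown to be bound. The half-site (capitals) and the bases around it, 5′ to 3′ on the strand of each gene, show which genes hold it and where. Only bases before the gene start are printed, so the stretch of Hnmt ends there. The stretches are given for the lower genes that hold the half-site before the start, each described above.
Cyp2c11 (chr1:246175035-246175100, plus strand): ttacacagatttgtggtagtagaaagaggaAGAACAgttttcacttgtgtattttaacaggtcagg
Prlr (chr2:60909584-60909649, plus strand): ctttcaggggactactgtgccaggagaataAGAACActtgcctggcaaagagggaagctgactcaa
Hnmt (chr3:27010292-27010335, minus strand): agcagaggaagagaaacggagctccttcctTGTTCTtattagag
Kap (chr4:168409209-168409274, minus strand): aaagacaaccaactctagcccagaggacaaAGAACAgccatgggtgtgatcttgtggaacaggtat
Slco1a1 (chr4:176682090-176682155, minus strand): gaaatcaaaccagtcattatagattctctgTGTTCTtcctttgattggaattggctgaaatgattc

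The half-site begins 151 bases before the start in Cyp2c11, 45 in Prlr, 14 in Hnmt, 212 in Kap and 133 in Slco1a1. The window of Prlr belongs to 1 of its 2 starts in the table. The steroid receptor palindrome, made of 2 such half-sites, was in 0 of the called genes with a window and in 0.0149% of all windows. Also in 0 of them were TGACGTCA (1.83% of all windows), CACGTG (6.42%), TTCTTGGAA (0.526%) and both forms of the direct repeat of nuclear receptors (0.0538% and 0.0179%). TTCNNNGAA, the core that STAT proteins bind, was in Prlr alone among them and in 8.87% of all windows. CCAAT was in 5 of the lower and 3 of the higher genes (37.5% of all windows), and TATAAA in Cyp2c11 and Ucp1 (14.2%).

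The signalling phosphatases Ppp1cb and Ppp1cc, catalytic subunits of protein phosphatase 1, were called with changes of opposite sign in the hormone groups. Ppp1cb went from 435 to 363 and from 216 to 99.8 in ACTH rats 1 and 5, and from 177 to 450 and 169 to 242 in DEX rats 3 and 7. The right kidney of DEX rat 3 was the brightest of the 4 and that of ACTH rat 5 the dimmest. The difference was −1.51 ± 0.28 (adjusted p = 0.0351), of which −0.63 came from ACTH and 0.88 from DEX, and neither change was called by itself. The second Ppp1cb probe set gave −0.88, not called.

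Ppp1cc changed by −0.27 and −0.57 after ACTH and by 0.95 and 0.60 after DEX (difference −1.19 ± 0.21, adjusted p = 0.0331). In the list of 17 tested phosphatase subunits these 2 were called lower and 0 higher. The list held 15 negative and 2 positive differences with a median of −0.16. Over all probe sets tested 0.572% were called. The lists were chosen with earlier results known, so these 2 calls are no independent support. The same holds for the calls in every other list. The other catalytic subunit of the same enzyme, Ppp1ca, had −0.11 (adjusted p = 0.90).

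Per2, a repressor in the circadian clock that glucocorticoids also induce, went from 69.3 to 32.9 and from 91.1 to 42.6 in ACTH rats 1 and 5. In DEX rats 3 and 7 it went from 41.7 to 66.1 and from 76.9 to 85.7. It is a dim gene, dimmer in the right kidney of both ACTH rats and brighter in that of both DEX rats. The difference was −1.16 ± 0.18 (adjusted p = 0.0167), with the saline rats between −0.28 and 0.07, and was −0.69 with a pseudocount of 64 (adjusted p = 0.0235). In the clock list 1 of 8 tested genes was called, 5 were negative and the median was −0.30. The nuclear receptor Nr1d2 had −1.16 ± 0.26 (adjusted p = 0.0774), the output factor Dbp −0.89 and the activator Bmal1 0.32.

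Dnaja1, a co-chaperone of heat shock protein 70, was called in 1 of its 2 probe sets, with −1.10 ± 0.19 (adjusted p = 0.0325), and the brighter one gave −1.10 ± 0.27 (adjusted p = 0.108), or −0.66 without rat 5. By that brighter probe set 0 of the 23 tested heat shock and endoplasmic reticulum chaperones were called, while 9 had an unadjusted p under 0.05. Differences were negative for 21 of the 23, with a median of −0.34 (−0.39 in the first set of rats and −0.36 in the second). Averaged over the list, the changes were −0.05 and −0.25 after ACTH and 0.32 and 0.04 after DEX, and the saline rats ran from −0.29, below either ACTH rat, to 0.06. Hspa5, the main chaperone of the endoplasmic reticulum, had −1.002 (adjusted p = 0.25). The small heat shock protein Hspb1 was on the other side, with 0.80 ± 0.20 (adjusted p = 0.11).

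**Figure D2:**
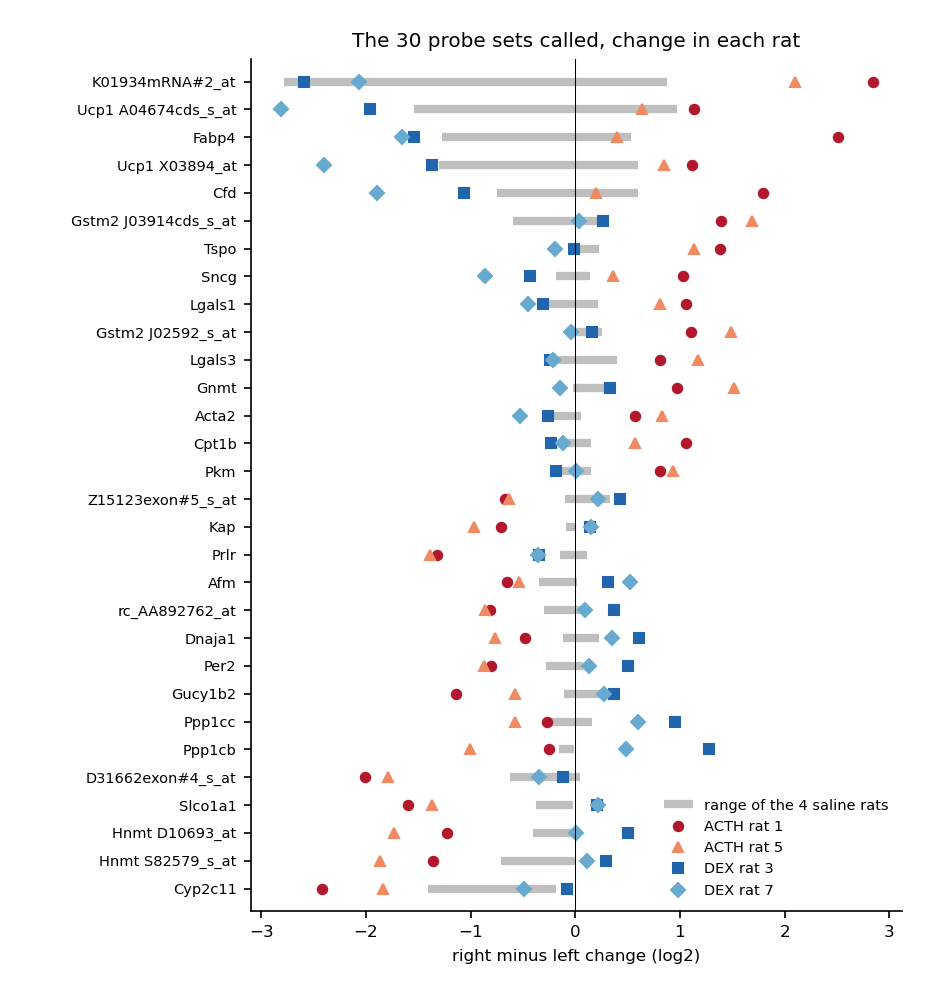
Right minus left change (log2) of the 30 called probe sets, 1 row each, in ACTH rats 1 and 5 (red, orange) and DEX rats 3 and 7 (dark and light blue), with the range of the 4 saline rats as a grey bar. The ACTH rats lie to the left of the DEX rats in the lower 15 rows and to their right in the upper 15, and the saline bar is widest for K01934mRNA#2_at (−2.78 to 0.88), Ucp1 (−1.55 to 0.97) and Fabp4 (−1.28 to 0.53).

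On the higher side, Tspo, the translocator protein of the outer mitochondrial membrane, went from 519 to 1383 in ACTH rat 1 and from 468 to 1050 in ACTH rat 5. It was 456 and 451 in the left and right kidney of DEX rat 3, and 560 and 489 in DEX rat 7. Both ACTH right kidneys were brighter than every other kidney, of which the brightest was at 583. The difference was 1.36 ± 0.19 (adjusted p = 0.0138), or 2.58-fold. Among 15 tested genes of steroid receptors, steroid synthesis and inactivation, Tspo was the 1 called.

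Gstm2, a mu-class glutathione transferase, went from 356 to 787 and from 445 to 1278 in the ACTH rats. It went from 459 to 516 and from 517 to 500 in the DEX rats. The difference was 1.24 ± 0.20 (adjusted p = 0.0261), and the second probe set gave 1.39 ± 0.27 (adjusted p = 0.0476). Probe sets for this family can bind near-identical paralogs, and Gstm1 had 0.88 (adjusted p = 0.17). The 23 tested genes of glutathione transferases and glutathione synthesis had 1 call and a median of −0.03. Gclm and Gclc, the subunits of the enzyme that limits glutathione synthesis, had −0.85 ± 0.19 (adjusted p = 0.0774) and −0.81 (adjusted p = 0.082).

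The galectins Lgals1 and Lgals3, sugar-binding proteins of stroma, macrophages and injured tubules, were both called. Lgals1 signals went from 368 to 784 and from 379 to 677 after ACTH, and from 355 to 284 and 624 to 453 after DEX (difference 1.31 ± 0.21, adjusted p = 0.0259, and 0.78 with adjusted p = 0.274 when the fat cell marker level was a covariate). Lgals3 went from 148 to 272 and from 110 to 270 after ACTH, and from 124 to 102 and 178 to 151 after DEX (difference 1.22 ± 0.22, adjusted p = 0.0331). Both genes were higher in the right kidney of each ACTH rat and lower in that of each DEX rat. They were the 2 members called among 25 tested genes of tubular injury and the immediate early response, of which 15 were positive, with a median of 0.26. In that list Hmox1, an enzyme of heme breakdown, had a difference of −1.55 (adjusted p = 0.51), with changes of −3.55 in rat 1 and 0.20 in rat 5.

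Of the enzymes called higher, Gnmt, a glycine methyltransferase, was called in 1 of 3 probe sets at 1.15 ± 0.23 (adjusted p = 0.0489), and the others gave 0.85 and 0.79. The glycolytic enzyme Pkm had changes of 0.81 and 0.94 after ACTH against −0.19 and 0.00 after DEX (difference 0.96 ± 0.18, adjusted p = 0.0411). Cpt1b, the muscle and brown fat form of the enzyme that brings fatty acids into mitochondria, had 1.06 and 0.57 against −0.24 and −0.11 (difference 0.99 ± 0.20, adjusted p = 0.0489). With the fat cell marker level as a covariate it had 0.39 (adjusted p = 0.541). Its second probe set had 1.42, not called. The kidney and liver form Cpt1a had −0.60 (adjusted p = 0.36).

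Acta2, smooth muscle actin, was called in 1 of 3 probe sets. That one, which is not the brightest, had changes of 0.58 and 0.83 after ACTH and of −0.26 and −0.53 after DEX (difference 1.09 ± 0.18, adjusted p = 0.0272). The others had 1.05 (adjusted p = 0.0569) and 0.46 (adjusted p = 0.339). Smooth muscle and mesangium markers were positive in 8 of 8 tested genes with 0 called, 5 at an unadjusted p under 0.05 and a median of 0.42.

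**Figure D3:**
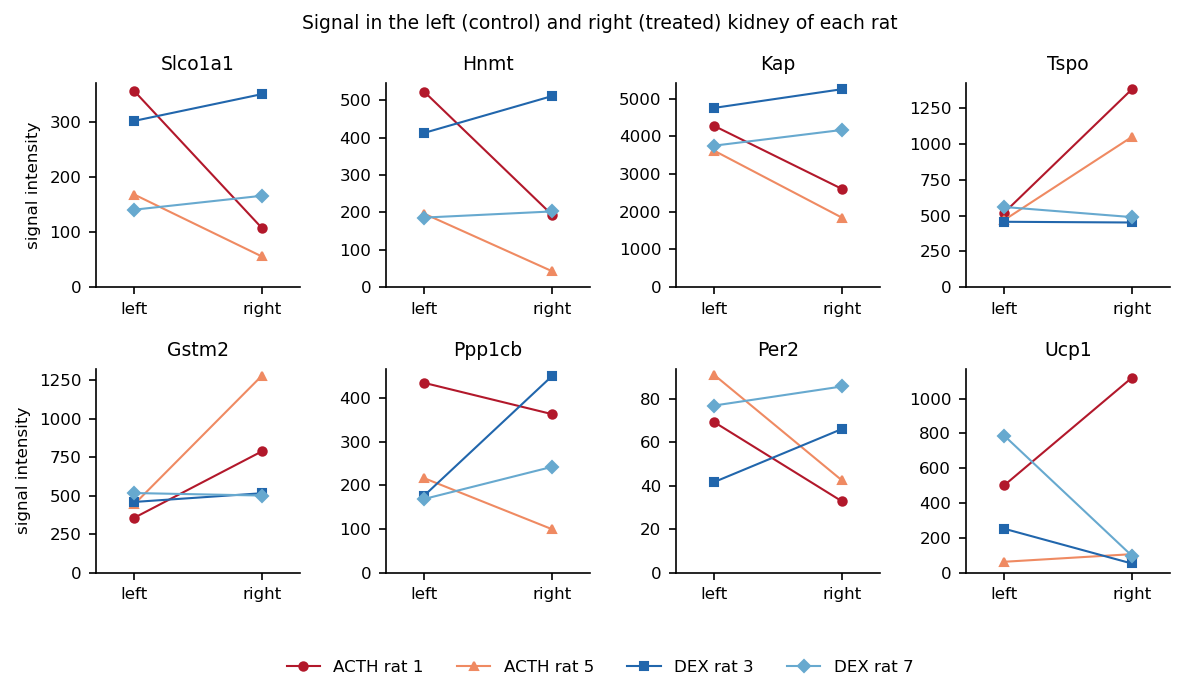
Signal intensity (linear scale, from 0) of 8 called genes in the left control kidney and the right treated kidney, 1 line per rat, with ACTH rats in red and orange and DEX rats in dark and light blue. Slco1a1, Hnmt and Kap fall along both ACTH lines and Tspo and Gstm2 climb along them while the DEX lines slope less, whereas for Ppp1cb, Per2 and Ucp1 the DEX lines also slope, against the ACTH lines.

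Among the called probe sets with a gene symbol, the largest differences were those of fat genes. Ucp1, the uncoupling protein of brown fat, went from 501 to 1119 in ACTH rat 1 and from 62.7 to 106 in ACTH rat 5. In the DEX rats it went from 253 to 53.0 and from 788 to 98.2. The left kidneys already ranged from 62.7 to 788 over the 4 rats. The difference was 3.27 ± 0.60 (adjusted p = 0.0351), and the second probe set gave 2.87 ± 0.49 (adjusted p = 0.0312).

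Fabp4, the fatty acid binding protein of adipocytes, went from 213 to 1284 and from 72.1 to 100 after ACTH, and from 194 to 56.4 and 263 to 72.8 after DEX (difference 3.05 ± 0.60, adjusted p = 0.0476). Cfd, adipsin, changed by 1.80 and 0.20 against −1.06 and −1.90 (difference 2.48 ± 0.49, adjusted p = 0.0489). Sncg, gamma-synuclein, which adipocytes and neurons make, changed by 1.03 and 0.36 against −0.43 and −0.86 (difference 1.34 ± 0.24, adjusted p = 0.0331). In each of these genes ACTH rat 1 had the higher change of the ACTH rats and both DEX rats had negative ones. The saline rats ran from −1.55 to 0.97 for the brighter Ucp1 probe set, from −1.28 to 0.53 for Fabp4 and from −0.75 to 0.60 for Cfd, and saline rat 2 was above ACTH rat 5 (0.64, 0.40 and 0.20) in all 3. The probe set K01934mRNA#2_at, without a gene symbol, had the largest difference of all called, 4.80 ± 0.87 (adjusted p = 0.0345). Its signal went from 478 to 3521 and from 43.5 to 240 after ACTH, and from 278 to 32.6 and 297 to 58.8 after DEX. Its changes were −2.59 and −2.07 in the DEX rats, and a saline rat reached −2.78.

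Of 15 tested markers of brown and white fat cells, 3 were called higher and 0 lower, 14 were positive and the median was 1.23 (1.97 in rats 1 to 4, 0.55 in rats 5 to 8). Cidea, a lipid droplet protein, had 2.81 ± 0.57 (adjusted p = 0.0503) and Cox8b, a respiratory chain subunit of brown fat and muscle, 2.44 ± 0.55 (adjusted p = 0.0774), or 1.28 without rat 1. The mean log2 level of the 15 markers was 7.89 in the left and 9.32 in the right kidney of ACTH rat 1, and 7.24 and 7.49 in ACTH rat 5. It was 7.69 and 6.94 in DEX rat 3, and 7.98 and 7.12 in DEX rat 7. The saline left kidneys ran from 7.04 to 7.92 and the saline right kidneys from 6.85 to 7.32. Thus the right kidney of rat 1 was above all others. The left kidney of DEX rat 7 was above the range of the saline left kidneys, and those of ACTH rat 1 and DEX rat 3 were in its upper part. Of the 20 markers in the list, Plin1 was below the filter (34.7 to 70.7) and Ucp1 was as low as 53.0 in a right kidney of a DEX rat. With this score as a covariate 8 of the 30 were still called. These were both probe sets of Hnmt and of Gstm2 and the called ones of Slco1a1, Kap, Ppp1cb and Dnaja1. Of those no longer called, Sncg had 0.55 (adjusted p = 0.451) and K01934mRNA#2_at 1.44 (adjusted p = 0.577). Tspo had 1.16 and Prlr −1.07 (both adjusted p = 0.109). Ppp1cc (−1.24), Pkm (1.12), Acta2 (1.13), Lgals3 (1.19), Gnmt (1.49) and rc_AA892762_at (−1.27) had differences of similar or larger size than without the score. Per2 (−1.03), D31662exon#4_s_at (−1.29) and Z15123exon#5_s_at (−0.70) had smaller ones. The score changed by 1.44 and 0.25 in the ACTH rats and by −0.74 and −0.85 in the DEX rats, so it overlaps the contrast. A call lost in that fit therefore need not mean a smaller difference. Ucp1, Fabp4 and Cfd are part of the score, so that fit is no test of them. Without rat 1 the differences were 3.02 (adjusted p = 0.0642) for Ucp1, 2.00 (0.0789) for Fabp4, 1.68 (0.0848) for Cfd and 1.00 (0.053) for Sncg.

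Lipogenic enzymes were positive in 11 of 12 tested genes with a median of 0.68 and 0 called, 7 at an unadjusted p under 0.05. The desaturase Scd had 4.10 (adjusted p = 0.12), the fatty acid synthase Fasn 2.50 (adjusted p = 0.14) and the citrate lyase Acly 1.39 ± 0.34 (adjusted p = 0.11). Acly went from 1335 to 4322 in ACTH rat 1 and from 491 to 693 in ACTH rat 5, against 843 to 660 and 607 to 503 in the DEX rats. The list's median change was 1.28 in rat 1, 0.48 in rat 5, 0.00 in rat 3 and −0.06 in rat 7. The saline rats had medians between −0.10 and 0.25. The list's change was highest in the rat with the highest fat marker score. Scd is a member of both the list and the score, so this agreement is partly built in. With that score as a covariate Acly had −0.22 (adjusted p = 0.767), and without rat 1 it had 0.79.

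The genes set aside for the corticosteroid receptors themselves did not pass. Sgk1, the kinase that corticosteroids induce in the distal nephron, went from 478 to 472 and from 323 to 419 after ACTH, and from 249 to 690 and 519 to 566 after DEX. DEX rat 3 had the largest change of the 4, at 1.42, and DEX rat 7 had 0.12. The difference was −0.60 ± 0.32 (adjusted p = 0.509), and it was 0.05 without rat 3 and −1.24 without rat 7. Nr3c1, the glucocorticoid receptor, had 0.02 ± 0.17 (adjusted p = 0.98) and Hsd11b2, which inactivates corticosterone in the collecting duct, 0.46 ± 0.25 (adjusted p = 0.504), with 0.91 in ACTH rat 5 and at most 0.11 in the other 3 rats. The mineralocorticoid receptor Nr3c2 and the injury marker Havcr1 were below the filter, and Tsc22d3, Fkbp5, Per1 and Mc2r are not named on the array. Among 18 tested glucocorticoid receptor targets Per2 was the 1 called. In that list 11 were negative and 7 positive, with a median of −0.11. Its extremes besides Per2 were Klf9, a transcription factor, at −1.01 (adjusted p = 0.21) and Ndrg2 at 1.01 ± 0.23 (adjusted p = 0.0774).

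Among the kidney's own segments the thick ascending limb stood lowest, with 6 of 6 tested markers negative, a median of −0.56 and 0 called. Egf, the growth factor precursor made there, went from 1114 to 591 and from 1060 to 660 after ACTH, and from 770 to 1195 and 1052 to 1058 after DEX (difference −1.10 ± 0.24, adjusted p = 0.0663). The sodium-potassium-chloride cotransporter Slc12a1 had −0.58, the potassium channel Kcnj1 −0.55 and Umod −0.41. Each of these 3 had an adjusted p over 0.05. Proximal tubule markers were negative in 15 of 18, with Kap called and a median of −0.28, and the peptidase Mme had −0.82 ± 0.22 (adjusted p = 0.14).

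Collecting duct markers were positive in 9 of 9 with a median of 0.29 and 0 called. In rats 1 to 4 that median was −0.01, and in rats 5 to 8 it was 0.64. Averaged over the 9 markers, ACTH rat 5 had a change of 0.67 and ACTH rat 1 one of −0.16, with the saline rats between −0.05 and 0.21. The erythrocyte genes, positive in 3 of 3 with 0 called, showed the same split, with a median difference of 0.06 in the first set of rats and 1.79 in the second. Averaged over the 3 genes, the changes were −0.33 (rat 1) and 0.95 (rat 5) after ACTH, and −0.33 (rat 3) and −0.82 (rat 7) after DEX, with the saline rats between −0.51 and 0.38. Hbb, a hemoglobin chain, had 0.73 ± 0.33 (adjusted p = 0.399). How far the share of medulla or blood in each kidney moved the other genes was not tested.

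In distal sodium and potassium transport 11 of 19 tested genes were positive with a median of 0.10 and 0 called. The potassium channel Kcnq1 came nearest, with signals from 49.1 to 91.0 and from 70.7 to 151 after ACTH and from 68.7 to 68.3 and 63.5 to 69.7 after DEX (difference 0.78 ± 0.17, adjusted p = 0.0612). The kallikrein Klk1 had 0.74 ± 0.17 (adjusted p = 0.0774). The channel subunits Scnn1a, Scnn1b and Scnn1g had 0.43, 0.35 and 0.09, none called. Kcnq1 and Klk1 were both higher in the right kidney of each ACTH rat.

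Organic anion and cation transporters were negative in 10 of 16 with Slco1a1 called and a median of −0.11, and the carnitine carrier Slc22a5 had −0.76 ± 0.22 (adjusted p = 0.175). Methyltransferases and the methionine cycle had 1 call, Hnmt, among 11 and a median of −0.12. There Mat2a, which makes S-adenosylmethionine, had −0.89 ± 0.21 (adjusted p = 0.0881) and Cth, a cysteine-forming lyase, −0.63 ± 0.20 (adjusted p = 0.25). Gluconeogenesis and amino acid catabolism had 15 of 22 positive, 0 called and a median of 0.06, led by the alanine transaminase Gpt at 0.81 ± 0.21 (adjusted p = 0.136), or 0.51 without rat 1. Fatty acid oxidation had 13 of 21 positive, Cpt1b called and a median of 0.09.

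Interferon response and antigen presentation genes were negative in 16 of 19, with 0 called and a median of −0.21 (−0.57 in rats 1 to 4, 0.03 in rats 5 to 8). The chemokine Ccl5 had −0.59 ± 0.24 (adjusted p = 0.356), with −1.21 in rat 1 and −0.47 in rat 5 against −0.25 in each DEX rat and up to 0.42 in the saline rats, and −0.22 without rat 1 and −0.96 without rat 5. The antiviral Mx1 had −0.58 ± 0.19 (adjusted p = 0.253). Medians were 0.06 over 26 collagens and matrix genes and 0.03 over 29 oxidative phosphorylation genes, both with 0 called. Among the remaining cell types, each with 0 called, the medians were 0.15 for distal convoluted and connecting tubule, 0.11 for endothelium, 0.04 for podocyte and for leukocyte, −0.04 for intercalated cell, 0.02 for adrenal cortex and 0.15 for skeletal muscle.

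**Figure D4:**
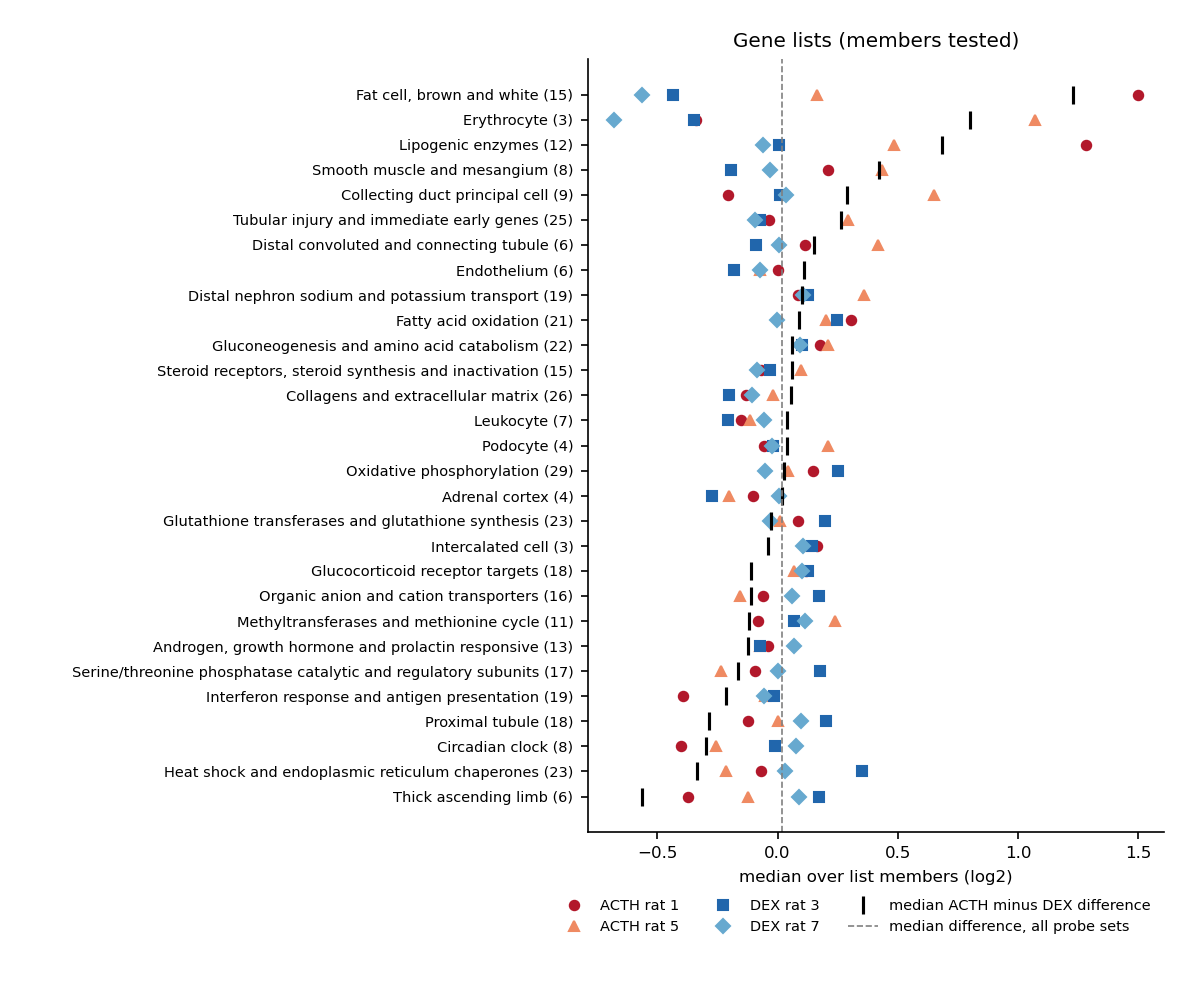
Median right minus left change (log2) over the tested members of each gene list (number in brackets) in each ACTH and DEX rat, with the median ACTH minus DEX difference as a black tick and the median difference of all probe sets, 0.02, as a dashed line. Fat cell markers lie far to the right in ACTH rat 1 alone, at a median difference of 1.23, and thick ascending limb markers lie furthest to the left, at −0.56.

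The kidneys were also compared without their partners. In the left kidneys the ACTH and DEX rats had 0 called probe sets in limma and 40 (0.763%) at an unadjusted p under 0.05. In the right kidneys alone they had 0 called and 260 (4.96%) at an unadjusted p under 0.05, in a comparison that holds the spread between rats. For 26 of the 30 called probe sets the difference between the right kidneys was larger than that between the left ones. The left kidneys differed in the opposite direction for 28 of the 30, which adds to the paired difference. Calling on the paired difference itself favours left differences of the opposite sign. Neither count was made over all probe sets, so neither is independent support. Tspo had 1.33 between the right and −0.03 between the left kidneys, and Slco1a1 −1.46 and 0.23. For Ppp1cb these were −0.73 and 0.78, so its difference lay as much between the control kidneys as between the treated ones. Acta2 had 0.43 and −0.66, Ppp1cc −0.56 and 0.64, and Afm −0.48 and 0.54. In these 4 genes the left kidneys made up the larger part of the difference.

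Changes that both hormones shared were looked for after the values had been seen, as a right minus left change past 0.5 in the same direction in all 4 rats. There were 13 such probe sets, 12 higher and 1 lower. The collagen gene Col3a1 changed by −1.27 and −0.57 after ACTH and by −0.92 and −0.99 after DEX, while the saline rats ran from 0.01 to 0.38. Its difference between the hormones was 0.03, with a 95% interval of −0.48 to 0.54. Bhmt, which remethylates homocysteine, changed by 1.19 and 0.89 against 0.59 and 0.57, a difference of 0.46 with an interval of 0.05 to 0.87 (adjusted p = 0.357). No saline rat passed that limit for Col3a1 or Bhmt. For the desaturase Scd2, seen in 3 of the 13 probe sets, 3 or 4 of the 4 saline rats passed it too. For Zfp36, Ckb and Dnase1 1 saline rat passed it, and for Acaa1b 2 did. The shared probe sets without a gene symbol each had 0 or 2 such rats.

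The genes just outside the threshold were Eif4ebp1, a repressor of translation, at 0.96 ± 0.19 and Cidea (both adjusted p = 0.0503), B4galt6, a galactosyltransferase, at −0.88 ± 0.18 (adjusted p = 0.0549), and Pter, at −1.06 ± 0.22 (adjusted p = 0.0569). The other tested probe sets of Eif4ebp1 gave 1.08 (adjusted p = 0.0719) and 0.32 (adjusted p = 0.466). Just inside were Gnmt, Cpt1b and Cfd, each with an adjusted p of 0.0489. Pter went from 390 to 213 and from 439 to 242 after ACTH, and from 390 to 521 and 528 to 556 after DEX.

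The number of calls depended on single animals. Leaving out rats 1 to 8 in turn gave 100, 18, 4, 7, 88, 25, 2 and 22 called probe sets, among which were 20, 18, 1, 7, 21, 24, 2 and 22 of the 30. Of those 8 fits, the ones without an ACTH or DEX rat leave 1 rat in that group, which is assumed to vary like the others. All 30 kept their sign in each of the 8. Slco1a1 was called in every one, with differences between −1.81 and −1.58, and was missed without the rat term and with the right kidneys alone. Each of the others was missed at least without rat 3. The first Hnmt probe set, Tspo, Kap and Per2 were missed without rat 3 (adjusted p of 0.101, 0.0811, 0.0977 and 0.145) and without rat 7 (0.10, 0.10, 0.10 and 0.052), with differences there of −1.72, 1.45, −0.99 and −0.97, and of −1.91, 1.28, −0.98 and −1.35. In each set of 4 rats, all 30 differences had the sign of the whole, which the calls themselves largely fix. With a right kidney term for each set of 4 rats 74 probe sets were called, including all 30.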

How the data were processed

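Per the labels, total RNA of each kidney was extracted with Tri-Reagent, cleaned on RNeasy columns and, at 5 to 8 µg, made into biotinylated cRNA, and 1 array was run per kidney. The deposited values are signal intensity per probe set on a linear scale, from 5.18 to 12664. How the authors summarized and normalized them is not given in the sources used here. Array medians lay between 76.0 and 82.1 and spanned 0.11 on the log2 scale, under the 0.5 set as a limit, so nothing was rescaled. What limited the precision was not measured.

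Of 8740 probe sets left after 59 controls, the 40% with the lowest mean (3496) were left out. The platform annotation gave 1 gene symbol to 7006 probe sets, several to 308 and none to 1426, and 6985 matched the RefSeq table (GRCr8) by gene identifier with 0 symbols changed. The 5244 tested probe sets held 3193 genes by symbol. limma 3.58.1 (R 4.3.3) was fitted to log2(value + 16) over all 16 arrays with a term for each rat, the right kidney, and ACTH and DEX in the right kidney, with an intensity trend (5 residual and 7.34 prior degrees of freedom). Tests were two-sided and adjusted over 5244 probe sets. The fit was also run on simulated arrays with known changes, larger than most of the called differences. Those arrays had independent probe sets and no difference between the sets of rats. That run therefore does not measure the error of the tests here. Both kidneys of a rat share the animal, and their deviations from the group means had correlations of 0.623 to 0.763. Each hormone group holds a rat of each set, so these deviations include the difference between the sets. The 2 rats of a hormone also give the same value. The correlations therefore do not measure the shared animal alone. Rats are separate animals, with 2 per hormone.

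The members, lists and rules were chosen with earlier results of these data known. A gene was represented by its brightest probe set. Named genes are the called ones, filled to 12 in each direction, with their other probe sets, the 2 members of each list with the smallest p, 9 genes for corticosteroid action, and the largest called probe sets without a symbol. Klf9, Hspa5, Dbp, Bmal1, Ppp1ca, Gstm1, Gclc, Cpt1a, Hmox1, Scd, Fasn, Slc12a1, Umod, Slc34a1, Aqp2, Scnn1a, Scnn1b, Scnn1g and the shared genes Col3a1, Bhmt, Scd2, Zfp36, Ckb, Dnase1 and Acaa1b were named after their values were seen, and so were the called probe sets of Gnmt, Acta2 and Dnaja1 and Z15123exon#5_s_at. Alternatives were other pseudocounts, filters and normalizations, fewer arrays, no rat term, no intensity trend, the fat marker score or the set of 4 rats as a term, and each rat left out.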

Additional observations from a re-analysis of the deposited data

Results flagged for a closer look

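In 156 comparisons of the lowest and highest sample with the rest of its group, 7 named genes or probe sets had 1 kidney far from the others, where 8 were due by chance. Among genes called for the difference, Tspo was highest in the saline right kidney of rat 6 at 581, with the next at 443. Sncg was highest in the left kidney of DEX rat 7 at 337, with the next left kidney at 191, which is the control for its change of −0.86 in that rat. Prlr was lowest in the saline right kidney of rat 4 at 228, with the next at 262, and Z15123exon#5_s_at in that of rat 8 at 184, with the next at 229. Among genes that were not called, B4galt6 was highest in the left kidney of ACTH rat 1 at 134, with the next at 98.0. Gclm was lowest in the saline right kidney of rat 6 at 1103, with the next at 1463, and Lyz2 highest in that of rat 4 at 872, with the next at 618.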

How the results depend on the processing

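The count of 30 stayed within 1.5 times under pseudocounts of 1 (35) and 64 (24), no filter (30), a 60% filter (30), quantile normalization (29), median centring (28), no trend (29) and the 8 hormone arrays alone (20, with 9 lower). Of the 30 themselves, these settings kept 30, 24, 27, 26, 24, 27, 27 and 17, in that order. The 60% filter left the others untested. With the 8 arrays alone the calls of Prlr, Ppp1cb, Ppp1cc, Gucy1b2, Afm, Dnaja1, Pkm, Cpt1b, Gnmt, Sncg and Acta2 were lost. So were those of the brighter Gstm2 probe set and of a lower probe set without a gene symbol, while all 30 kept their sign. Without the replicate block, and with right kidneys only, 0 were called (0 higher, 0 lower), with 151 and 260 at an unadjusted p under 0.05. With the fat score as covariate 91 were called, 80 of them lower, among them 8 of the 30, and Fabp4, itself part of the score, turned to −0.055. With a right kidney term for each set of 4 rats, 35 higher and 39 lower made 74. Leaving out 1 rat gave 2 to 100 calls (0 to 65 higher, 2 to 65 lower), 119 to 272 in the ACTH rats, 0 to 4 in the DEX rats, 0 to 2 between left kidneys and 0 to 24 between right kidneys. The 8 arrays alone gave 4 in the DEX rats and 1 between left kidneys, and the fat covariate gave 1 in the DEX rats. Over the named probe sets and alternatives, 1240 values kept direction and side of the threshold, 240 lost the call, 40 gained it and 21 changed sign, and 531 list medians moved by less than the spread and 68 by more. Besides Fabp4, those that changed sign were of probe sets not called in either fit. With the fat covariate these were Acly (−0.22), Cox8b (−0.17), Ccl5 (0.048), Ptpro (0.33), Cd14 (−0.083), Cyp17a1 (0.25) and Cyp11a1 (−0.021), and with right kidneys only Tnni1 (−0.049) and Nr3c1 (−0.17). Leaving out 1 rat also turned Ptpro (−0.48 to 0.12), Cyp11a1 (−0.091 to 0.23), Atp6v1g3 (−0.40 to 0.016), Tnni1 (−0.058 to 0.25), Sgk1 (−1.24 to 0.052), Nr3c1 (−0.10 to 0.15), Car2 (−0.32 to 0.24) and Cyp17a1 (−0.18 to 0.022). The causes were not tested.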
